A study of Mus musculus with 24 samples.

Results

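Amino acid transporters of the Slc1, Slc3, Slc6, Slc7, Slc36, Slc38 and Slc43 families were followed in splenic dendritic cells. The members were all genes whose single platform symbol begins with one of these family names and a number, and each gene was represented by its probe set with the highest mean over the 24 arrays. The platform measured 64 such genes among 19938 genes in all. Of these, 27 lay above the array median on at least 3 of the 24 arrays and were tested together with the rest of the 11228 genes that passed the same filter.

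Conventional dendritic cells (cDC) were sorted by flow cytometry as CD11c+ cells of the CD8+ or the CD11b+ kind from collagenase-treated spleens of female NOD and C57BL/6 (B6) mice aged 8 to 10 weeks. NOD is an inbred strain that develops autoimmune diabetes, and B6 served as the control strain. The mice had been injected 12 hours earlier with CpG-A, a DNA oligonucleotide that stimulates the receptor TLR9, or with PBS. The groups were CD8+ cDC of NOD mice after CpG and after PBS, CD8+ cDC of B6 mice after CpG and after PBS, and the same 4 groups of CD11b+ cDC, with 3 arrays in each of the 8 groups. The labels do not say whether the 3 arrays of a group came from separate animals or pools, so p-values here reflect only how far these arrays differ from each other, and that spread may be technical. In such sorted populations, fewer cells of a kind and less RNA per cell cannot be told apart.

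The Slc7 light chains exchange amino acids across the plasma membrane, and most of them reach the membrane only when joined to a heavy chain of the Slc3 family. Slc1a5 and the Slc38 carriers bring in glutamine and other small neutral amino acids with sodium, and some Slc36 and Slc38 members sit on lysosomes, where amino acid efflux and sensing feed the growth kinase complex mTORC1. The Slc6 family carries taurine, betaine, creatine, glycine, proline and monoamine transmitters, and the Slc43 family carries large neutral amino acids and, through Slc43a3, purine bases. In dendritic cells, cystine uptake, leucine uptake and arginine uptake are known to bear on glutathione, growth signalling and nitric oxide.

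The labelled cell types were checked against their markers. Cd8a, the CD8 alpha chain, lay between 10.99 and 11.71 on the log2 scale in the 12 CD8+ samples and between 5.04 and 8.81 in the 12 CD11b+ samples. Among CD11b+ samples it was highest in B6 after CpG (7.87 to 8.81), against 6.47 to 7.31 in B6 after PBS. Itgam, which encodes CD11b, lay between 4.45 and 5.39 in CD8+ samples, against 6.61 to 9.03 in CD11b+ samples. The CD11b+ values of Itgam were 6.61 to 7.82 after CpG and 8.54 to 9.03 after PBS. Of 14 markers of the CD8+ lineage, 12 or 13 were higher in CD8+ than in CD11b+ cells in each strain and treatment. After CpG, 10 of these 14 were lower in NOD CD8+ and 12 in B6 CD8+ cDC, and of 13 tested markers of the CD11b+ lineage 6 were lower in NOD CD11b+ and 8 in B6 CD11b+ cDC. The mean log2 value of the CD8+ lineage markers was 9.41 to 10.26 in NOD CD8+ samples after CpG and 10.54 to 10.64 after PBS, and 8.93 to 9.31 in B6 CD8+ samples after CpG and 10.24 to 10.38 after PBS. Their part in the CpG results was not tested. Markers of natural killer cells (14 genes) had a mean log2 value of 9.66 to 10.59 in CpG B6 CD11b+ samples, against 6.96 to 7.63 in PBS B6 CD11b+ samples. In NOD CD11b+ samples the same mean was 7.49 to 7.57 after CpG and 6.21 to 6.39 after PBS. In the CD8+ groups it was lower but also rose after CpG without overlap. It was 6.46 to 6.79 after CpG and 6.08 to 6.27 after PBS in NOD CD8+ samples. In B6 CD8+ samples it was 6.71 to 7.15 after CpG and 6.31 to 6.69 after PBS. Ncr1, a receptor that defines natural killer cells, reached 9.33 to 10.49 in CpG B6 CD11b+ samples, against 6.12 to 6.78 in PBS B6 CD11b+ samples. B cell markers averaged 7.59 to 8.84 in PBS NOD CD8+ samples, against 6.40 to 7.45 in PBS B6 CD8+ samples. Red pulp macrophage markers averaged 7.08 to 7.18 in PBS NOD CD11b+ samples, against 7.67 to 8.53 in PBS B6 CD11b+ samples. After CpG they averaged 7.71 to 7.85 in NOD CD11b+ samples. In NOD CD8+ samples they averaged 7.21 to 7.62 after CpG and 6.49 to 6.81 after PBS. In B6 samples the CpG and PBS ranges overlapped in both subsets. The part of these markers in the results was not tested. The array labelled replicate 1 of CpG NOD CD8+ cDC was closest to an array of another group, and 23 of the 24 arrays were closest to one of their own. Some results of CpG NOD CD8+ cDC are also given without that array.

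Only part of each family was expressed above the array median. The Slc7 family contributed 8 tested genes of 16 measured, the Slc6 family 7 of 21, the Slc38 family 6 of 11, the Slc36 family 2 of 4, the Slc43 family 2 of 3, and the Slc1 and Slc3 families 1 each of 7 and 2. Of the tested members, 14 lay above the median on all 24 arrays: Slc38a2, Slc6a6, Slc3a2, Slc7a5, Slc38a1, Slc1a5, Slc38a9, Slc7a1, Slc7a6os, Slc43a3, Slc7a6, Slc38a10, Slc6a20a and Slc38a7. A further 7 passed on fewer than 12 arrays: Slc6a12, Slc6a8, Slc7a10, Slc6a9, Slc6a3, Slc6a7 and Slc7a11. Slc7a6os carries the family name but is the gene on the opposite strand of Slc7a6 and is no transporter. The 37 genes below the filter included the glutamate transporters Slc1a1, Slc1a2, Slc1a3 and Slc1a6, the neutral carrier Slc1a4, the heavy chain Slc3a1, the arginine transporters Slc7a2 and Slc7a3, the system N carriers Slc38a3 and Slc38a5, and Slc43a1. Of the Slc6 family, 14 genes were below it, among them the transporters of serotonin (Slc6a4), noradrenaline (Slc6a2) and glycine (Slc6a5). Nearest outside the filter lay Slc6a2, Slc43a1 and Slc36a4, each above the median on 1 array with mean log2 values of 5.45, 5.23 and 5.20. Nearest inside lay Slc6a7 on 5 arrays (mean 5.72) and Slc7a11 on 6 arrays (mean 5.22). Those 6 arrays were the B6 CD11b+ arrays, so Slc7a11 passed only through the groups in which it was high. Likewise all 10 arrays of Slc6a12 were CD11b+ arrays, and all 7 arrays of Slc6a8 and all 5 of Slc6a7 were CpG arrays. For these 4 genes, differences along the line that let them pass are given as descriptions, with no test. Slc6a9 lay above the median on 9 arrays, and the only PBS array among them was 1 of NOD CD8+ cDC. Its CpG differences in B6 mice are therefore descriptions too.

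CpG injection was followed by changes of both signs in these families. In NOD CD8+ cDC, 11 of the 27 members changed (3 higher and 8 lower), beside 40.7% of all genes tested (15.1% higher and 25.5% lower). In B6 CD8+ cDC, 16 changed (6 higher and 10 lower), beside 57.7% of all genes (21.1% higher and 36.6% lower). In NOD CD11b+ cDC, 6 changed (3 higher and 3 lower), beside 15.4% of all genes (9.7% higher and 5.73% lower). In B6 CD11b+ cDC, 18 changed (10 higher and 8 lower), beside 38.9% of all genes (15.9% higher and 23% lower). The B6 counts include Slc6a8 and Slc6a9 in both subsets and Slc6a7 in CD8+ cDC. These genes passed the filter wholly or mostly through CpG arrays, so their higher calls after CpG are descriptions. The median log2 difference of the 27 members was -0.05 in NOD CD8+ cDC, -0.12 in B6 CD8+ cDC, -0.02 in NOD CD11b+ cDC and -0.07 in B6 CD11b+ cDC, beside -0.08, -0.10, -0.04 and -0.07 for all genes. A change here means a Benjamini-Hochberg adjusted p under 0.05 over all 11228 genes in limma. Centring each array on the median of the genes tested moved the CpG difference of every gene up by 0.15 in NOD CD8+ cDC, 0.25 in B6 CD8+ cDC, 0.02 in NOD CD11b+ cDC and 0.12 in B6 CD11b+ cDC. With that centring the members' calls split into 5 higher and 6 lower in NOD CD8+ cDC, 11 and 8 in B6 CD8+ cDC, 3 and 3 in NOD CD11b+ cDC and 10 and 7 in B6 CD11b+ cDC. The share of higher calls among all called genes was then 55.4%, 59.2%, 63.0% and 54.7% in the same order, beside 37.2%, 36.6%, 62.9% and 40.8% as deposited. Differences below are those of the deposited scale.

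**Figure D1:**
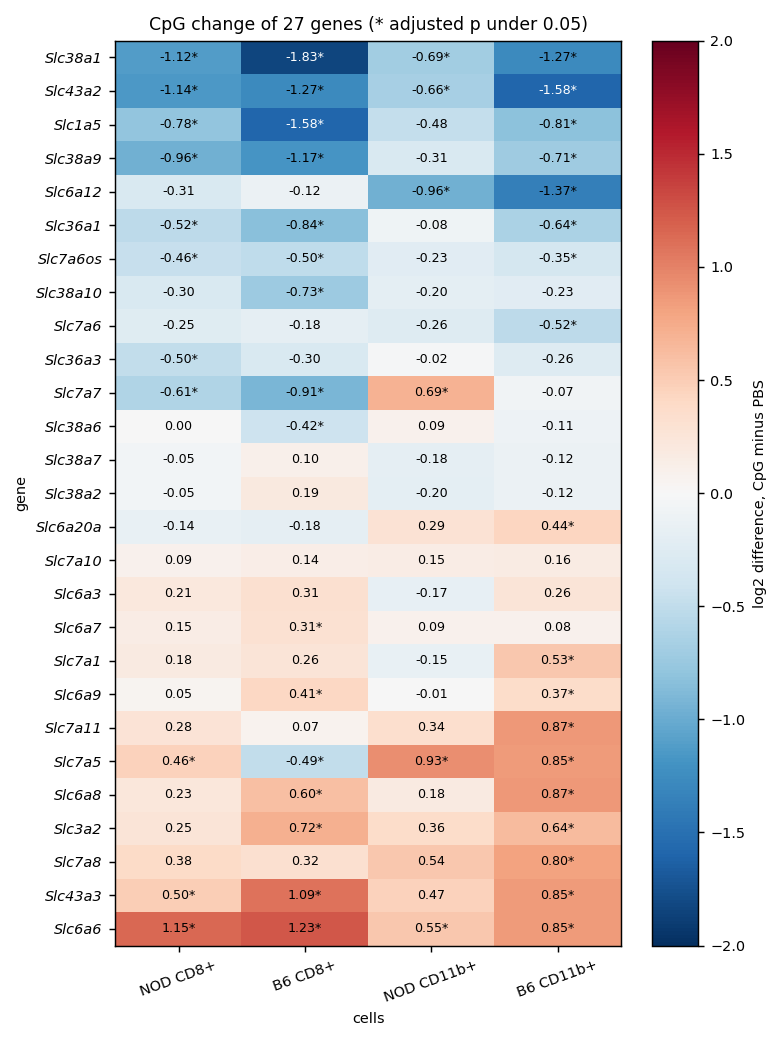
CpG minus PBS log2 difference of the 27 tested genes (rows) in NOD CD8+, B6 CD8+, NOD CD11b+ and B6 CD11b+ cDC (columns), with an asterisk at adjusted p under 0.05. Slc38a1 and Slc43a2 were called lower and Slc6a6 higher in all 4 columns, while Slc7a5 and Slc7a7 have called values of both signs.

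Without replicate 1 of CpG NOD CD8+ cDC, the array that stood apart, 10 members were called after CpG in that comparison (2 higher and 8 lower). Slc38a1 was then at -0.83 (adjusted p = 0.000914), Slc38a9 at -0.70 (adjusted p = 0.000384) and Slc43a2 at -0.99 (adjusted p = 5.26e-06). Slc6a6 was at 1.01 (adjusted p = 7.1e-06) and Slc7a5 at 0.60 (adjusted p = 0.00842). Slc36a1 (-0.47, adjusted p = 0.0416), Slc36a3 (-0.58, adjusted p = 0.00803) and Slc7a6os (-0.31, adjusted p = 0.0481) were still called, Slc7a7 and Slc43a3 were not, and Slc6a12 was added.

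Among the carriers of glutamine, Slc38a1 was lower after CpG in all 4 comparisons and Slc1a5 in 3 of them. Slc38a1, which takes up glutamine with sodium, had log2 values of 7.24, 7.79 and 8.37 in NOD CD8+ cDC after CpG, against 8.94, 8.78 and 9.03 after PBS. In B6 CD8+ cDC its values were 6.72, 7.17 and 7.29 after CpG and 8.90, 8.80 and 8.96 after PBS. The groups did not overlap in either strain, and the NOD fall of 2.17-fold (-1.12 ± 0.20, SE, n = 3 against 3, adjusted p = 0.000115) and the B6 fall of 3.56-fold (-1.83 ± 0.20, adjusted p = 6.27e-08) both passed. In CD11b+ cDC, Slc38a1 had 8.24, 8.28 and 8.73 in NOD after CpG and 9.22, 8.99 and 9.12 after PBS. It had 7.97, 8.35 and 8.35 in B6 after CpG and 9.57, 9.37 and 9.54 after PBS. These groups did not overlap either, with differences of -0.69 ± 0.20 in NOD (adjusted p = 0.0181) and -1.27 ± 0.20 in B6 (adjusted p = 2.07e-05). The NOD CD11b+ call ended without replicate 1 of the PBS group (adjusted p = 0.0722) and without replicate 1 or 2 of the CpG group (0.104 and 0.0802).

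Slc1a5 exchanges glutamine and other neutral amino acids. It had 6.77, 7.75 and 7.99 in NOD CD8+ cDC after CpG, against 8.20, 8.21 and 8.45 after PBS. Values in B6 CD8+ cDC were 7.58, 7.77 and 8.01 after CpG, against 9.37, 9.25 and 9.48 after PBS. All CpG samples lay below all PBS samples of their strain, and the fall was 1.72-fold in NOD (-0.78 ± 0.21, adjusted p = 0.00463) and 2.99-fold in B6 (-1.58 ± 0.21, adjusted p = 1.06e-06). Without the NOD CpG array that stood apart, the NOD value was -0.42 (adjusted p = 0.0468), and a fit of only the groups compared gave adjusted p = 0.0736. In CD11b+ cDC, Slc1a5 had 7.44, 7.39 and 7.67 in NOD after CpG and 7.87, 7.97 and 8.08 after PBS, a difference of -0.48 ± 0.21 that did not pass (adjusted p = 0.14). In B6 CD11b+ cDC it had 8.10, 8.55 and 8.06 after CpG and 9.24, 8.82 and 9.08 after PBS, and the fall of 0.81 ± 0.21 on the log2 scale passed (adjusted p = 0.00337).

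Slc38a2, a glutamine and alanine carrier that amino acid shortage is known to induce, gave CpG differences of -0.05 in NOD CD8+ cDC, 0.19 in B6 CD8+ cDC, -0.20 in NOD CD11b+ cDC and -0.12 in B6 CD11b+ cDC, none of which passed. Slc38a7, a lysosomal glutamine exporter, lay between -0.18 and 0.10 in the 4 comparisons with no call. Slc38a10 stood at -0.30 in NOD CD8+ cDC (adjusted p = 0.0505, and 0.0358 with the replicate number as a block) and was lower in B6 CD8+ cDC (-0.73 ± 0.12, adjusted p = 2.12e-05). Slc38a6 was lower in B6 CD8+ cDC by 0.42 ± 0.16 (adjusted p = 0.0322), a call that ended with centring on the tested genes (-0.17) and without replicate 1 or 2 of the PBS group or any 1 array of the CpG group (adjusted p of 0.0579 to 0.167).

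Of the lysosomal members, Slc38a9 and Slc36a1 fell in 3 of the 4 comparisons each. Slc38a9, which senses lysosomal arginine for mTORC1, had 6.61, 7.39 and 7.40 in NOD CD8+ cDC after CpG, against 8.30, 7.93 and 8.06 after PBS. Values in B6 CD8+ cDC were 6.73, 6.95 and 7.17 after CpG, against 8.17, 8.11 and 8.09 after PBS. The groups did not overlap, and the falls were 1.95-fold in NOD (-0.96 ± 0.17, adjusted p = 7.47e-05) and 2.26-fold in B6 (-1.17 ± 0.17, adjusted p = 2.64e-06). In CD11b+ cDC the values were 8.33, 8.31 and 8.36 in NOD after CpG and 8.67, 8.73 and 8.53 after PBS, a difference of -0.31 that did not pass. They were 7.57, 7.77 and 8.01 in B6 after CpG and 8.65, 8.39 and 8.44 after PBS, a difference that did (-0.71 ± 0.17, adjusted p = 0.00151). Slc36a1, a proton-coupled exporter of small amino acids from lysosomes, was lower by 0.52 ± 0.15 in NOD CD8+ cDC (adjusted p = 0.00998), 0.84 ± 0.15 in B6 CD8+ cDC (adjusted p = 6.98e-05) and 0.64 ± 0.15 in B6 CD11b+ cDC (adjusted p = 0.00192). In NOD CD11b+ cDC its difference was -0.08, and the NOD CD8+ call ended with centring on the tested genes (adjusted p = 0.0631) and without replicate 1 of its PBS group (adjusted p = 0.0588). Slc36a3 was lower by 0.50 ± 0.14 in NOD CD8+ cDC (adjusted p = 0.00833), a call that the same centring ended, and it was not called in the other 3 comparisons. It lay above the array median on 0 CpG arrays and 2 PBS arrays of NOD CD8+ cDC, so these values are low. Slc36a1 lay above the median on 0 CpG arrays of B6 CD8+ cDC.

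Slc43a2, a facilitative carrier of leucine and other large neutral amino acids, was lower in all 4 kinds of cells. In NOD CD8+ cDC it had 5.63, 5.80 and 6.35 after CpG, against 7.04, 6.99 and 7.18 after PBS. Values in B6 CD8+ cDC were 5.50, 5.88 and 5.75 after CpG, against 6.99, 6.98 and 6.98 after PBS. The groups were apart, at 2.21-fold lower in NOD (-1.14 ± 0.14, adjusted p = 6.52e-07) and 2.41-fold lower in B6 (-1.27 ± 0.14, adjusted p = 5.03e-08). After CpG, only 1 CD8+ array of each strain lay above the array median, so these CpG values are low. In NOD CD11b+ cDC it had 7.68, 7.72 and 7.70 after CpG, against 8.48, 8.22 and 8.38 after PBS. Values in B6 CD11b+ cDC were 6.45, 6.53 and 6.61 after CpG, against 8.08, 8.07 and 8.17 after PBS. Both falls passed, at -0.66 ± 0.14 in NOD (adjusted p = 0.00114) and -1.58 ± 0.14 in B6 (adjusted p = 3.21e-09), and all 4 calls held in every alternative tried.

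The promoter windows of Slc38a9 and Slc43a2 are shown because both genes fell in most of the comparisons. Each runs from 250 bases before the start of a RefSeq transcript to 50 bases after it (GRCm38.p6), 5′ to 3′ along the gene, with Slc38a9 at chr13:112660516-112660815 on the plus strand and Slc43a2, in 1 of its 2 windows, at chr11:75531444-75531743 on the plus strand. Capitals mark matches, on either strand, to 5 short motifs, namely the interferon response core GAAANNGAA (found in 8.6% of all 32851 windows of this length), the antioxidant element TGACNNNGC (12.4%), the C/EBP-ATF element TGATGNAA (4.0%), a kB element GGGNNTTCC (5.8%) and the E-box CACGTG (7.2%). No matches overlap in the windows shown.
Slc38a9: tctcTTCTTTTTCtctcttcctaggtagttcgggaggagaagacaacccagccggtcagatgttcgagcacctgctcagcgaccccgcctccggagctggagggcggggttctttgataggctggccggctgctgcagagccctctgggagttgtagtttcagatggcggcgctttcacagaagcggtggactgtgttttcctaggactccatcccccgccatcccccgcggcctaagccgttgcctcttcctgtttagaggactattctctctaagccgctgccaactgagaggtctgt
Slc43a2: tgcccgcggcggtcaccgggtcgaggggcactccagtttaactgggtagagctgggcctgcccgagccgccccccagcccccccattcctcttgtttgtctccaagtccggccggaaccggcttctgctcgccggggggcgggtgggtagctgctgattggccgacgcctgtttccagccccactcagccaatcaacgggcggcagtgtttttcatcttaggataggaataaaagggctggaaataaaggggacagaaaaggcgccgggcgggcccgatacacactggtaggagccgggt
The Slc38a9 window holds 1 match, to the interferon response core, 246 bases before the start, and neither Slc43a2 window holds any. A window was given for 20 of the 27 tested members, and 3 of these 20 genes had an interferon response core match in any window. Counted by window, as the shares above are, 4 of their 33 windows held such a match.

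The taurine transporter rose in all 4 comparisons and Slc43a3 in 3 of them. Slc6a6, which takes up taurine, had 11.33, 11.04 and 10.78 in NOD CD8+ cDC after CpG, against 10.17, 9.67 and 9.88 after PBS. In B6 CD8+ cDC it had 11.15, 11.06 and 10.98 after CpG, against 10.00, 9.80 and 9.69 after PBS. The groups were apart, at 2.22-fold higher in NOD (1.15 ± 0.14, adjusted p = 8.73e-07) and 2.35-fold higher in B6 (1.23 ± 0.14, adjusted p = 1.09e-07). In CD11b+ cDC, Slc6a6 had 10.44, 10.11 and 10.16 in NOD after CpG and 9.78, 9.51 and 9.78 after PBS. It had 10.73, 10.31 and 10.59 in B6 after CpG and 9.72, 9.63 and 9.72 after PBS. The rise was 0.55 ± 0.14 in NOD (adjusted p = 0.0077) and 0.85 ± 0.14 in B6 (adjusted p = 3.4e-05), and the NOD call ended under quantile normalization (0.34, adjusted p = 0.135) and without replicate 2 of its PBS group (adjusted p = 0.0562) or replicate 1 of its CpG group (adjusted p = 0.0699).

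Slc43a3, a carrier of purine bases, had 7.27, 7.46 and 7.17 in NOD CD8+ cDC after CpG, against 6.84, 6.45 and 7.11 after PBS. This rise of 0.50 ± 0.19 (adjusted p = 0.0381) was called, and the call ended without replicate 1 or 2 of either group, with no filter on dim genes and in a fit of only the groups compared (adjusted p of 0.0587 to 0.211). In B6 CD8+ cDC it had 7.61, 8.06 and 7.99 after CpG, against 6.76, 7.11 and 6.52 after PBS, a rise of 1.09 ± 0.19 (adjusted p = 3.49e-05). Its NOD CD11b+ values were 7.60, 7.24 and 7.74 after CpG and 7.24, 6.66 and 7.27 after PBS, which overlapped and did not pass (0.47, adjusted p = 0.103). Its B6 CD11b+ values were 8.46, 8.25 and 8.17 after CpG and 7.52, 7.52 and 7.28 after PBS, a rise of 0.85 ± 0.19 (adjusted p = 0.000934) between groups that were apart.

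Slc6a12, a betaine and GABA transporter, fell in CD11b+ cDC of both strains. In CD8+ cDC it lay below the array median on all arrays, with 5.65, 5.26 and 4.98 in NOD after CpG and 5.54, 5.58 and 5.67 after PBS. It had 5.60, 5.20 and 5.46 in B6 CD8+ cDC after CpG and 5.38, 5.61 and 5.62 after PBS, and the groups overlapped in both strains. These CD8+ differences of -0.31 in NOD and -0.12 in B6 did not pass, but without the array that stood apart the NOD value was called (-0.48, adjusted p = 0.0129). It had 6.15, 6.40 and 6.61 in NOD CD11b+ cDC after CpG, against 7.30, 7.33 and 7.42 after PBS. In B6 CD11b+ cDC it had 5.80, 5.57 and 5.85 after CpG, against 7.15, 7.12 and 7.08 after PBS. These groups were apart, at 1.95-fold lower in NOD (-0.96 ± 0.15, adjusted p = 3.77e-05) and 2.59-fold lower in B6 (-1.37 ± 0.15, adjusted p = 9.44e-08).

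Of the other Slc6 members, the creatine transporter Slc6a8 had CpG differences of 0.23 in NOD CD8+, 0.60 in B6 CD8+, 0.18 in NOD CD11b+ and 0.87 in B6 CD11b+ cDC. It lay above the array median on all CpG arrays of B6 mice, on 1 CpG array of NOD CD8+ cDC and on no PBS array, and the filter passed it through those arrays. The glycine transporter Slc6a9 stood higher by 0.41 in B6 CD8+ cDC and 0.37 in B6 CD11b+ cDC, both counted as calls. It lay above the array median on 3 and 2 CpG arrays of these cells and on 0 PBS arrays, so these differences are descriptions. Slc6a20a, a proline and imino acid transporter, rose by 0.44 in B6 CD11b+ cDC (adjusted p = 0.034). The Slc6a9 call ended without replicate 1 of either group in CD8+ cDC, and in CD11b+ cDC in a fit of only the groups compared and without replicate 2 or 3 of the PBS group or 1 or 2 of the CpG group. The Slc6a20a call ended with no filter and without replicate 2 or 3 of either group (adjusted p of 0.0542 to 0.226 in all). Slc6a3, the dopamine transporter, was called in none of the 4 comparisons, and the proline transporter Slc6a7 gave 0.31 in B6 CD8+ cDC, where the 3 CpG arrays let it pass the filter.

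**Figure D2:**
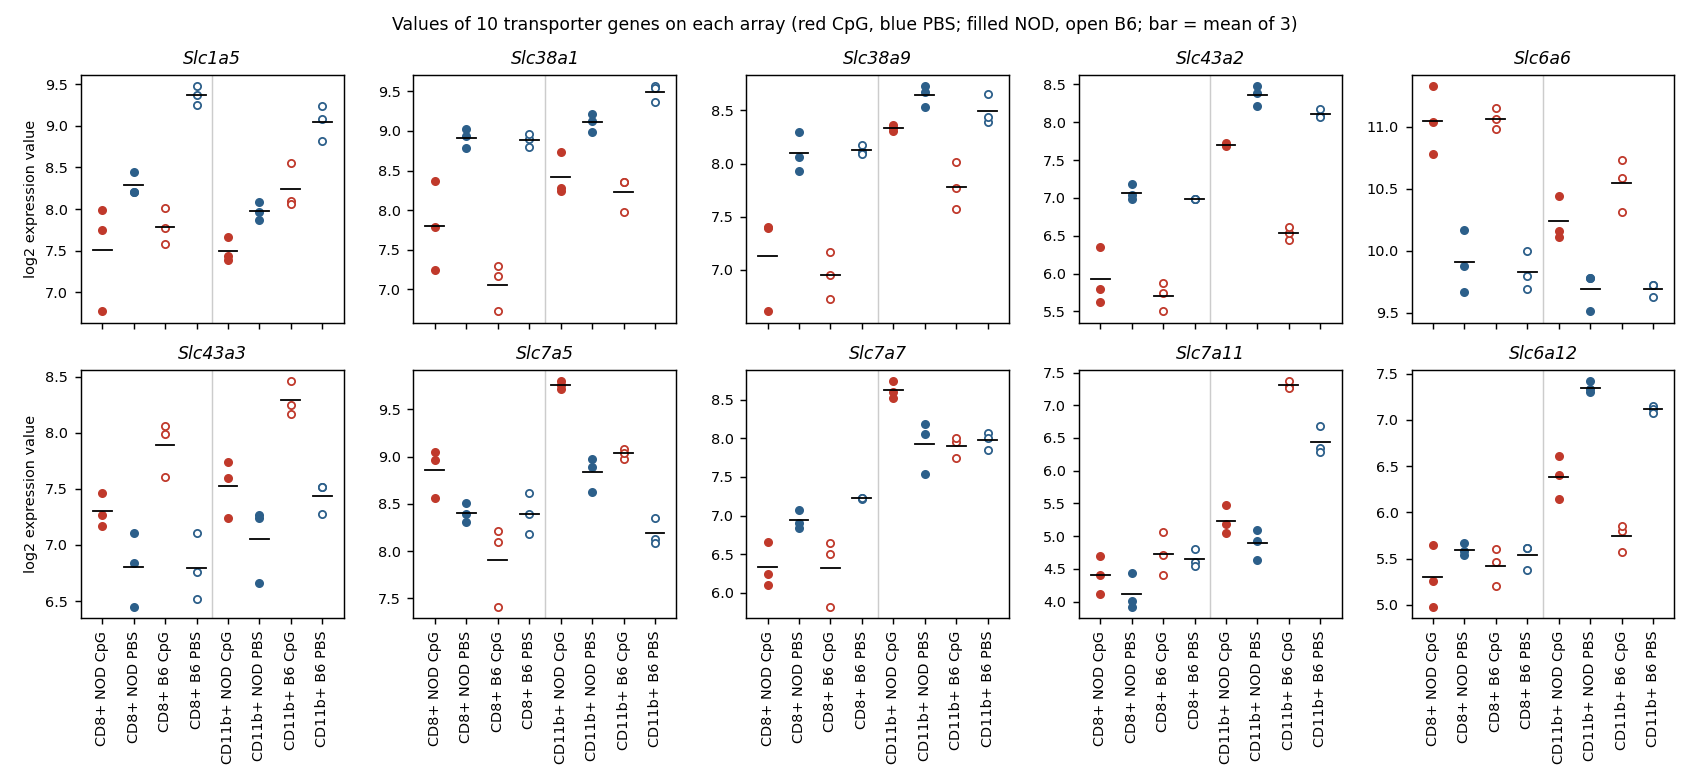
Log2 expression values of 10 transporter genes on each of the 24 arrays, by subset, strain and treatment, with a bar at the mean of 3 (red CpG, blue PBS, filled NOD, open B6). Slc7a11 stands at 6.28 to 7.37 in the B6 CD11b+ groups and at most at 5.48 elsewhere, and Slc6a12 is highest in the PBS CD11b+ groups.

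The heavy chain Slc3a2 (CD98) and its light chains did not move as 1 group. The CpG difference of Slc3a2 was 0.25 in NOD CD8+ and 0.36 in NOD CD11b+ cDC, and neither passed. Slc3a2 was higher after CpG in B6 CD8+ cDC, with values of 10.42, 10.71 and 10.07 after CpG and 9.64, 9.98 and 9.41 after PBS (0.72 ± 0.23, adjusted p = 0.00958). Values in B6 CD11b+ cDC were 9.68, 10.24 and 9.29 after CpG and 8.96, 9.57 and 8.77 after PBS, which overlapped (0.64 ± 0.23, adjusted p = 0.0294). Both B6 calls ended under quantile normalization (adjusted p = 0.0515 and 0.0901). The CD8+ call also ended without PBS replicate 3 or CpG replicate 2 (adjusted p = 0.0564 and 0.0623), and the CD11b+ call without replicate 1 of either group, PBS replicate 3 or CpG replicate 2 (adjusted p of 0.0556 to 0.202).

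Slc7a5 (LAT1), the light chain that takes up leucine and other large neutral amino acids, had 8.56, 8.96 and 9.05 in NOD CD8+ cDC after CpG, against 8.31, 8.39 and 8.51 after PBS. This rise of 0.46 ± 0.16 (adjusted p = 0.0297) lost its call in a fit of only the groups compared (adjusted p = 0.0768) and without PBS replicate 1 or 2 or CpG replicate 2 or 3 (adjusted p of 0.0654 to 0.106). In B6 CD8+ cDC it had 7.41, 8.10 and 8.21 after CpG and 8.18, 8.61 and 8.39 after PBS, a fall of 0.49 ± 0.16 (adjusted p = 0.0146) between groups that overlapped. That call ended without replicate 1 of the CpG group (-0.24, adjusted p = 0.178) or 2 of the PBS group (-0.38, adjusted p = 0.0846) with centring on the tested genes (-0.24) and in a fit of only the groups compared (adjusted p = 0.0515). Slc7a5 rose in both strains of CD11b+ cDC. It had 9.72, 9.80 and 9.76 in NOD after CpG and 8.89, 8.63 and 8.98 after PBS. It had 8.98, 9.08 and 9.04 in B6 after CpG and 8.13, 8.08 and 8.35 after PBS. The CD11b+ groups were apart, with rises of 1.90-fold in NOD (0.93 ± 0.16, adjusted p = 0.000224) and 1.80-fold in B6 (0.85 ± 0.16, adjusted p = 0.000237).

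Slc7a7, the light chain of system y+L that exports cationic amino acids such as arginine, moved with opposite signs in the NOD subsets. It had 6.10, 6.24 and 6.66 in NOD CD8+ cDC after CpG, against 6.84, 6.90 and 7.07 after PBS. Values in NOD CD11b+ cDC were 8.60, 8.74 and 8.52 after CpG, against 7.54, 8.05 and 8.19 after PBS. The groups were apart in both, with -0.61 ± 0.18 in CD8+ cDC (adjusted p = 0.01) and 0.69 ± 0.18 in CD11b+ cDC (adjusted p = 0.009). The CD8+ call ended without the array that stood apart (-0.49, adjusted p = 0.0616), and the CD11b+ call ended without replicate 1 of the PBS group (0.50, adjusted p = 0.0848). In B6 CD8+ cDC it had 5.82, 6.64 and 6.50 after CpG and 7.22, 7.23 and 7.23 after PBS, a fall of 0.91 ± 0.18 (adjusted p = 0.000172). Values in B6 CD11b+ cDC were 7.75, 7.95 and 8.01 after CpG and 7.85, 8.07 and 8.00 after PBS, and these overlapped (-0.07).

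Slc7a11 is the light chain of the cystine and glutamate exchanger xCT. In CD8+ cDC it had 4.11, 4.69 and 4.40 in NOD after CpG and 4.43, 3.92 and 4.01 after PBS. It had 4.71, 4.40 and 5.06 in B6 CD8+ cDC after CpG and 4.81, 4.61 and 4.54 after PBS. Its NOD CD11b+ values were 5.48, 5.18 and 5.04 after CpG and 5.10, 4.64 and 4.93 after PBS. All of these values lay below the array median, the CpG and PBS groups overlapped, and the differences of 0.28 in NOD CD8+, 0.07 in B6 CD8+ and 0.34 in NOD CD11b+ cDC did not pass. Its B6 CD11b+ values were 7.28, 7.37 and 7.26 after CpG and 6.69, 6.34 and 6.28 after PBS, a rise of 1.82-fold (0.87 ± 0.18, adjusted p = 0.000657) between groups that were apart. The NK marker means given above rose in the same B6 CD11b+ CpG samples, and their part in these CD11b+ results was not tested.

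Of the remaining light chains and cationic carriers, Slc7a8 (LAT2) rose by 0.80 ± 0.22 in B6 CD11b+ cDC (adjusted p = 0.00558), and its other CpG differences, 0.38 in NOD CD8+, 0.32 in B6 CD8+ and 0.54 in NOD CD11b+ cDC, did not pass. In B6 CD11b+ cDC, Slc7a8 lay above the array median on 3 CpG arrays and 0 PBS arrays, so its PBS values there are low. Slc7a1 (CAT1), which takes up arginine, rose by 0.53 ± 0.12 in B6 CD11b+ cDC (adjusted p = 0.00125), with 0.18, 0.26 and -0.15 in NOD CD8+, B6 CD8+ and NOD CD11b+ cDC. Slc7a6 fell by 0.52 ± 0.13 in B6 CD11b+ cDC (adjusted p = 0.00286) and was not called elsewhere. Slc7a10, a light chain for small neutral amino acids, was called in none of the 4 comparisons. The opposite-strand gene Slc7a6os gave -0.46 in NOD CD8+, -0.50 in B6 CD8+, -0.23 in NOD CD11b+ and -0.35 in B6 CD11b+ cDC, of which the NOD CD11b+ value did not pass. Its NOD CD8+ call ended in a fit of only the groups compared (adjusted p = 0.08), and its B6 CD11b+ call under both centrings, without PBS replicate 1 or 3 and without CpG replicate 1 (adjusted p of 0.0541 to 0.164).

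The windows of Slc7a11 and Slc7a7 are shown because these light chains had the largest differences between subsets after CpG among the members. This holds for Slc7a11 in B6 mice and for Slc7a7 in NOD mice. Slc7a11 lies at chr3:50443564-50443863 on the minus strand and Slc7a7, in the window of its 5 that holds matches to both elements named below, at chr14:54417653-54417952 on the minus strand, both from GRCm38.p6, with capitals as above.
Slc7a11: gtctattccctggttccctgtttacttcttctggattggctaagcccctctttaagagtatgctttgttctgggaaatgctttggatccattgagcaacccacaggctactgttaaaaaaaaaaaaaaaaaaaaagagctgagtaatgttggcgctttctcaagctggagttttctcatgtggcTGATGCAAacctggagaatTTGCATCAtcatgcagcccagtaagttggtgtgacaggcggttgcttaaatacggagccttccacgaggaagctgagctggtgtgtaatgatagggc
Slc7a7: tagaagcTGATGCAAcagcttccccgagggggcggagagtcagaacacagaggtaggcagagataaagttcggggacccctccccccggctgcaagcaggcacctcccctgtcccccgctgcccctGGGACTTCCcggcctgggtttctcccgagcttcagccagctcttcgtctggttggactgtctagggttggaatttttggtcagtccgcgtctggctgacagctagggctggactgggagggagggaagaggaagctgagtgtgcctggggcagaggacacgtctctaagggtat
The Slc7a11 window holds 2 matches to the C/EBP-ATF element, 66 and 47 bases before the start. The Slc7a7 window holds 1 such match 243 bases before the start and 1 kB match 124 bases before it. Of the other 4 Slc7a7 windows, 2 hold no match to any motif. Among the 20 member genes with a window, 2 had a C/EBP-ATF match and 2 a kB match. Counted by window, 3 of 33 held a C/EBP-ATF match and 3 of 33 a kB match. A match describes the letters only.

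Between strains, the question was how NOD and B6 cells of the same subset and treatment differ. Few members differed after PBS. In PBS CD8+ cDC, 1 of 27 was called, the lower Slc1a5, beside 3.62% of all genes (2.03% higher and 1.59% lower). Its 3 NOD values of 8.20, 8.21 and 8.45 lay below its B6 values of 9.37, 9.25 and 9.48, a difference of 2.11-fold (-1.08 ± 0.21, adjusted p = 0.00243). In PBS CD11b+ cDC, 3 members were called (1 higher and 2 lower in NOD), beside 5.59% of all genes (2.41% higher and 3.18% lower). Slc1a5 was again lower in NOD (-1.07 ± 0.21, adjusted p = 0.00184), with 7.87, 7.97 and 8.08 in NOD and 9.24, 8.82 and 9.08 in B6. Slc7a11, the other lower call, passed the filter only through the B6 arrays, with 4.64 to 5.10 in NOD and 6.28 to 6.69 in B6, a difference of -1.54. Slc7a5 was higher in NOD (0.65 ± 0.16, adjusted p = 0.0178), a call that ended without NOD replicate 1 or 3 or B6 replicate 1 or 2 (adjusted p of 0.0748 to 0.0941). Whether sequence differences between the strains lie under these probes was not tested.

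After CpG, 13 members differed between strains in CD11b+ cDC (7 higher and 6 lower in NOD), beside 23.2% of all genes (13.9% higher and 9.22% lower). Slc7a11 had NOD values at or below 5.48, under the array median, and B6 values at or above 7.26, a difference of -2.07 along the line that let it pass the filter. Slc7a1 was lower in NOD, with 7.16, 7.43 and 7.65 in NOD and 8.34, 8.45 and 8.30 in B6 (-0.95 ± 0.12, adjusted p = 3.77e-06). Slc43a3 (-0.77, adjusted p = 0.00426), Slc1a5 (-0.73, adjusted p = 0.0125) and Slc6a20a (-0.57, adjusted p = 0.012) were lower as well, and Slc6a8, which of these groups lay above the median in B6 alone, stood at -0.72. The Slc1a5 call ended without NOD replicate 2 or B6 replicate 2 (adjusted p = 0.0539 and 0.0785), and the Slc6a20a call without NOD replicate 2 or B6 replicate 3 (adjusted p = 0.0573 and 0.0976). Slc43a2 was 2.25-fold higher in NOD (1.17 ± 0.14, adjusted p = 1.01e-06), with NOD values of 7.68 to 7.72 and B6 values of 6.45 to 6.61. Slc7a5 (0.72, adjusted p = 0.00226), Slc7a7 (0.72, adjusted p = 0.00522), Slc6a12 (0.64, adjusted p = 0.00228), Slc36a1 (0.63, adjusted p = 0.00417), Slc38a9 (0.55, adjusted p = 0.0178) and Slc36a3 (0.47, adjusted p = 0.0199) were also higher in NOD. The Slc38a9 call ended without NOD replicate 3 or B6 replicate 1 (adjusted p = 0.0529 and 0.107), and the Slc36a3 call without NOD replicate 1 or 2 or B6 replicate 1 or 3 (adjusted p of 0.055 to 0.119). With centring on the tested genes, 6 members were higher and 6 lower in NOD, and the higher share among all called genes was 47.1%, beside 60.2%. Of the 14 NK markers, 11 were lower in CpG NOD than in CpG B6 CD11b+ cDC and none was higher, with a median of -3.34. Of 7 B cell markers, Cd79a, Cr2 and Ebf1 were higher in NOD (1.45, 1.66 and 1.44) and none was lower, and of 13 tested markers of the CD11b+ lineage 5 were higher and none lower. The part of these markers in the strain differences was not tested.

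In CpG CD8+ cDC, 5 members were called between strains (3 higher and 2 lower in NOD), beside 20.2% of all genes (12.4% higher and 7.84% lower). None of the 5 held in every alternative. Slc7a5 was higher in NOD, with NOD values of 8.56, 8.96 and 9.05 and B6 values of 7.41, 8.10 and 8.21 (0.95 ± 0.16, adjusted p = 0.000267). This call ended only in a fit of the groups compared alone (adjusted p = 0.0651). Slc38a1 (0.74, adjusted p = 0.0109) and Slc7a8 (0.69, adjusted p = 0.0286) were higher in NOD, and Slc43a3 (-0.59, adjusted p = 0.0308) was lower, with Slc6a8 at -0.46. With centring on the tested genes, 2 were higher and 3 lower, and the higher share among all called genes was 39.2%, beside 61.2%. Without the NOD array that stood apart, 9 members were called (7 higher and 2 lower), with Slc38a1 at 1.02, Slc7a5 at 1.10 and Slc38a9 at 0.45. Slc7a8 then stood at 0.88 and Slc43a3 at -0.57, and Slc43a2 (0.36), Slc7a6 (0.35) and Slc7a6os (0.37) were called higher as well. Without replicate 3 of the same group, 1 was called and Slc38a1 stood at 0.46 (adjusted p = 0.117). Without replicate 2 of it, 3 were called, and without replicate 1 or 2 of the B6 group, 2 were called. With the replicate number as a block, Slc38a6 (0.46, adjusted p = 0.0278) and Slc38a10 (0.31, adjusted p = 0.0494) were called as well. In this comparison 8 of 14 markers of the CD8+ lineage and 3 of 7 B cell markers were higher in NOD and none lower. Of 8 tested markers of plasmacytoid dendritic cells, Siglech (1.51) and Ccr9 (0.93) were higher in NOD and the others were not called. The part of all these markers in these differences was not tested.

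**Figure D3:**
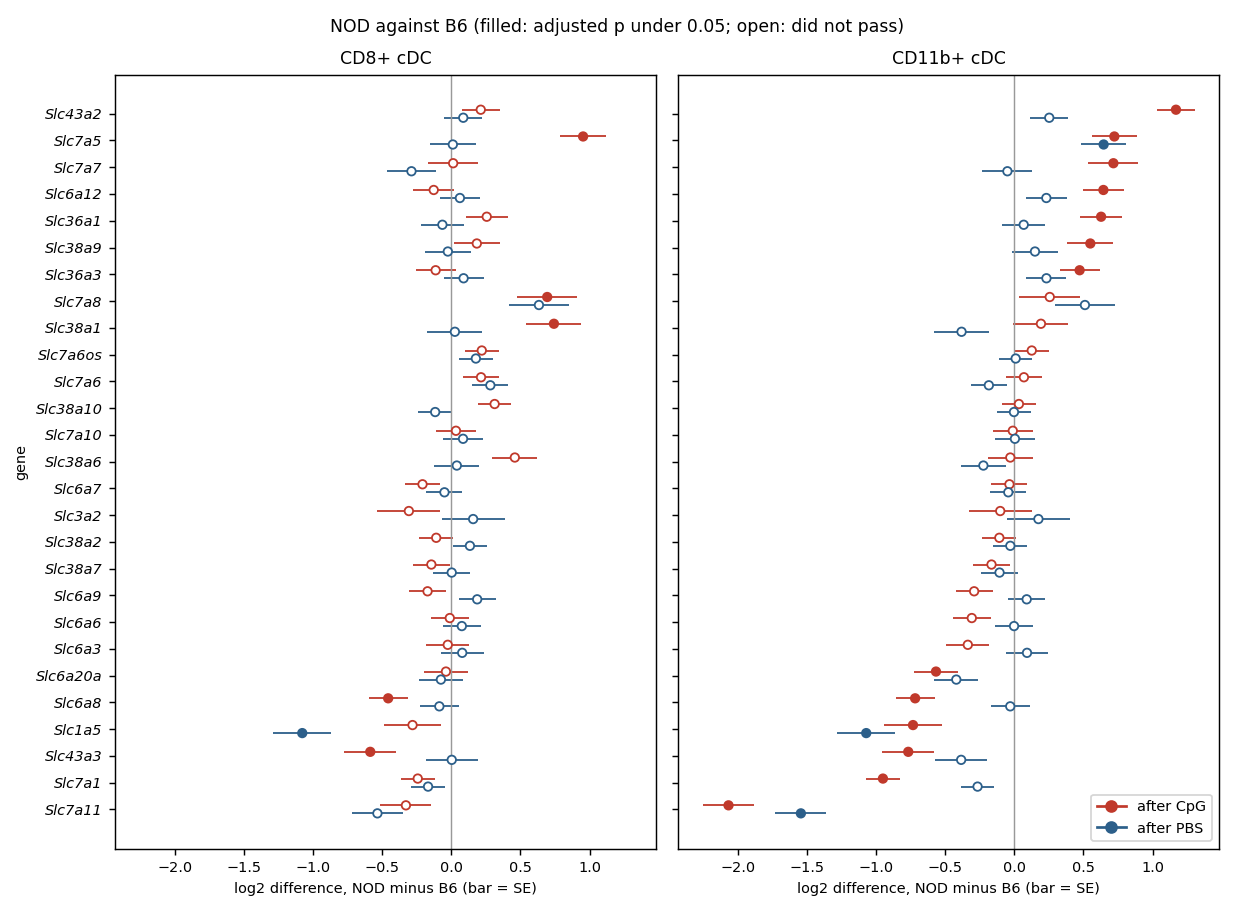
NOD minus B6 log2 difference (point, with SE) of the 27 tested genes in CD8+ cDC and CD11b+ cDC, after CpG (red) and after PBS (blue), filled at adjusted p under 0.05. Slc7a11, which passed the filter only through the B6 CD11b+ arrays, stands at -2.07 after CpG and -1.54 after PBS in CD11b+ cDC, and Slc43a2 at 1.17 after CpG.

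Between subsets, most called members were lower in CD8+ than in CD11b+ cDC, and after CpG so were most of all called genes. After CpG, 14 members were called in NOD (4 higher and 10 lower), beside 38.6% of all genes (14.5% higher and 24.1% lower). In CpG B6 mice, 14 were called (3 higher and 11 lower), beside 37.4% (12.8% higher and 24.5% lower). After PBS, 10 were called in NOD (2 higher and 8 lower), beside 21.8% (10.6% higher and 11.2% lower). In PBS B6 mice, 9 were called (1 higher and 8 lower), beside 21.7% (9.57% higher and 12.2% lower). With centring on the tested genes the CpG splits were 6 higher and 10 lower in NOD and 5 and 9 in B6. Among all called genes the higher share then was 55.6% in NOD and 57.3% in B6, beside 37.5% and 34.3%. Slc7a7 was lower in CD8+ cDC by 2.29 in CpG NOD (4.88-fold, adjusted p = 7.79e-10), 0.99 in PBS NOD (adjusted p = 0.0002), 1.58 in CpG B6 (adjusted p = 3.32e-07) and 0.75 in PBS B6 (adjusted p = 0.00341). Its values did not overlap between the subsets in any of these. Slc43a2 was likewise lower in CD8+ cDC in all 4 (-1.77, -1.29, -0.82 and -1.13, in the same order). Most of its CpG CD8+ arrays lay below the array median. The counts include Slc6a12 and Slc7a11, which passed the filter through CD11b+ arrays alone and lay below the array median on all CD8+ arrays, so their differences are descriptions. Slc6a12 stood at -1.09 in CpG NOD, -1.75 in PBS NOD, -0.32 in CpG B6 and -1.58 in PBS B6. Slc7a11 stood at -0.83 after CpG and -0.77 after PBS in NOD, and at -2.57 after CpG and -1.78 after PBS in B6. Without the CpG NOD CD8+ array that stood apart, Slc7a7 was at -2.17, Slc43a2 at -1.62 and 13 members were called in CpG NOD mice.

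Slc38a2 was lower in CD8+ cDC in all 4 comparisons (-0.52 in CpG NOD, -0.66 in PBS NOD, -0.51 in CpG B6 and -0.82 in PBS B6), with adjusted p between 1.76e-05 and 0.00214. Slc36a1 was lower in all 4 as well (-1.05, -0.61, -0.68 and -0.48), and its PBS B6 call ended under quantile normalization (adjusted p = 0.0593) and without CD8+ replicate 1 or 3 or CD11b+ replicate 3 (adjusted p of 0.0665 to 0.107). Slc7a8 and Slc7a6 were the light chains that were higher in CD8+ cDC. Slc7a8 had 6.99, 6.55 and 6.97 in PBS NOD CD8+ cDC, against 5.97, 5.74 and 5.77 in PBS NOD CD11b+ cDC (1.01 ± 0.22, adjusted p = 0.00127). Its differences were 0.84 in CpG NOD (adjusted p = 0.00404), 0.40 in CpG B6, which did not pass, and 0.88 in PBS B6 (adjusted p = 0.00431). In PBS CD11b+ cDC, Slc7a8 lay above the array median on 1 NOD array and 0 B6 arrays, so those values are low. Slc7a6 was higher by 0.70 in CpG NOD, 0.69 in PBS NOD and 0.56 in CpG B6, and its 0.22 in PBS B6 did not pass. Slc3a2 was higher in CD8+ cDC of CpG B6 mice (0.66, adjusted p = 0.0251), a call that ended without CD8+ replicate 1 or 2 or CD11b+ replicate 1 or 3 (adjusted p of 0.0641 to 0.17). With the replicate number as a block, Slc3a2 was also called in CpG NOD (0.46, adjusted p = 0.0105), PBS NOD (0.56, adjusted p = 0.00338) and PBS B6 (0.58, adjusted p = 0.00271). The block also called Slc36a3 in CpG B6 (-0.36, adjusted p = 0.0424) and Slc7a5 in PBS NOD (-0.43, adjusted p = 0.0242). In CpG mice, Slc7a5 was called lower in CD8+ cDC without the block. Across the alternatives its differences were -1.279 to -0.88 in CpG B6 and -0.996 to -0.752 in CpG NOD. Slc38a9 was likewise lower there (-0.944 to -0.65 in CpG B6, -1.335 to -0.938 in CpG NOD). Slc6a6 was higher there (0.404 to 0.691 in CpG B6, 0.679 to 0.956 in CpG NOD). All of these CpG calls held in every alternative.

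Whether the CpG change itself differed was tested with interaction terms. Between strains, NOD minus B6, 1 member was called in CD8+ cDC, with a positive difference, beside 4.02% of all genes (1.74% positive and 2.28% negative). In CD11b+ cDC, 3 were called (1 positive and 2 negative), beside 4.38% (2.4% positive and 1.98% negative). Slc43a2 fell less in NOD CD11b+ cDC, by 0.66, than in B6 CD11b+ cDC, by 1.58. The difference of 0.92 ± 0.19 (adjusted p = 0.00647) held in every alternative, none of which deals with other cells in the samples. NK marker means were highest in CpG B6 CD11b+ samples, and their part in this difference was not tested. Between subsets, CD8+ minus CD11b+, 1 member was called in NOD, with a negative difference, beside 6.8% of all genes (2.68% positive and 4.12% negative). In B6, 4 were called (1 positive and 3 negative), beside 13.4% (5.84% positive and 7.53% negative). The NOD call was Slc7a7 (-1.30 ± 0.26, adjusted p = 0.00319), with CpG changes of -0.61 in CD8+ and 0.69 in CD11b+ cDC. In B6, Slc7a5 changed by -0.49 in CD8+ and 0.85 in CD11b+ cDC (difference -1.34 ± 0.23, adjusted p = 0.000407), and Slc6a12 by -0.12 and -1.37 (difference 1.26 ± 0.21). The NOD difference of Slc7a7 and the B6 difference of Slc7a5 held in every alternative, with Slc7a7 at -1.18 without the array that stood apart. The Slc6a12 call kept its side in the alternatives that test it, which leave out the 12-array filter, and is a description, since its CD8+ values lay below the array median on every array. With the replicate number as a block, 2 members were called in NOD, where Slc6a6 was added (0.60, adjusted p = 0.00759), and 7 in B6. Centring on the tested genes gave 1 higher and 1 lower between strains in CD11b+ cDC, 1 lower between subsets in NOD, and 2 and 2 in B6. The higher shares among all called genes were then 42.8%, 55.9% and 57.7%, beside 54.9%, 39.4% and 43.7%.

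**Figure D4:**
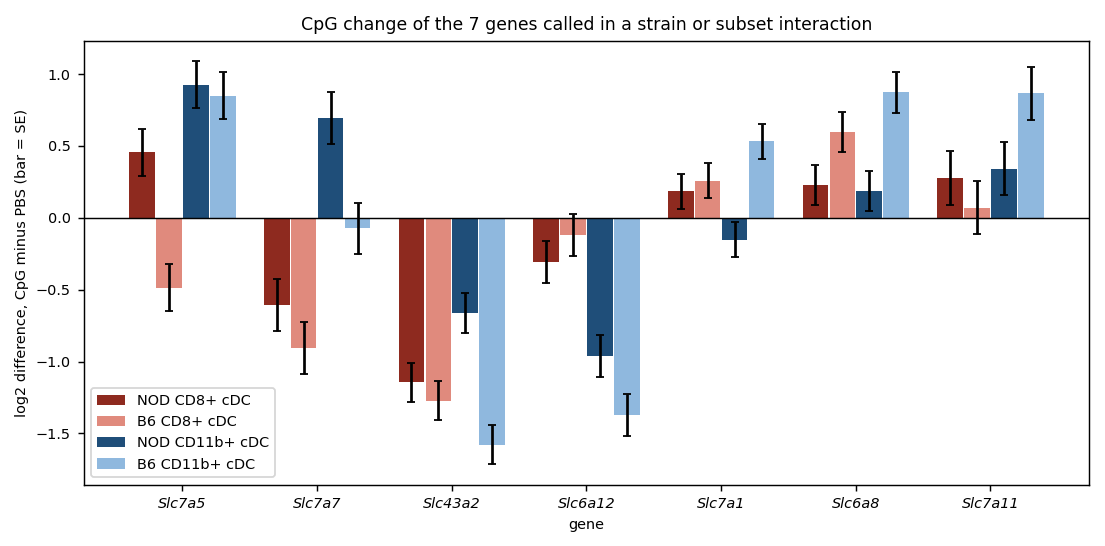
CpG minus PBS log2 difference (bar, with SE) in NOD CD8+, B6 CD8+, NOD CD11b+ and B6 CD11b+ cDC for the 7 transporter genes called in at least 1 interaction. Slc7a5 is negative only in B6 CD8+ cDC (-0.49), Slc7a7 is positive only in NOD CD11b+ cDC (0.69), and Slc6a12 falls most in B6 CD11b+ cDC (-1.37).

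Genes around the transporters were read from lists of known function, with counts in the order NOD CD8+, B6 CD8+, NOD CD11b+ and B6 CD11b+ cDC. Of all genes tested, 15.1%, 21.1%, 9.7% and 15.9% were higher and 25.5%, 36.6%, 5.73% and 23% lower after CpG in that order. Of 20 tested genes of the ATF4 amino acid response, 3, 4, 3 and 5 were higher and 2, 5, 0 and 4 lower, with medians of -0.09, -0.06, -0.08 and 0.05. The transcriptional regulator Nupr1 rose by 1.54, 2.10, 1.92 and 3.34, and the folate enzyme Mthfd2 by 0.83, 0.86, 0.92 and 1.02. Ddit4, an inhibitor of mTORC1, fell by 1.11 in B6 CD11b+ cDC and stood at -0.24, -0.24 and -0.08 in the other groups, which did not pass. Shmt2, a mitochondrial serine and glycine enzyme, fell by 1.01 in B6 CD8+ cDC, and its other values of -0.38, -0.31 and 0.02 did not pass. Of 35 tested genes of mTORC1 and its amino acid sensors, which include Slc38a9, 3, 6, 1 and 3 were higher and 13, 19, 4 and 15 lower. Sesn1, of the leucine-sensing sestrin family, fell by 1.01, 0.91, 0.62 and 1.60. Lamtor2, part of the lysosomal Ragulator, gave -1.12, -1.65, -0.33 and -0.77, of which the NOD CD11b+ value did not pass. Castor2, of the arginine sensor family, rose by 1.28, 1.78, 0.94 and 1.09. The median of the 35 genes was -0.20, -0.41, -0.04 and -0.21, beside -0.08, -0.10, -0.04 and -0.07 for all genes.

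The counts of the following lists stand beside the same shares of all genes. Of 16 tested glutathione and cystine redox genes, 6, 10, 3 and 4 were higher and 2, 2, 1 and 3 lower, with medians of 0.33, 0.46, 0.07 and -0.14. Gclc, the catalytic subunit of glutamate-cysteine ligase, rose by 1.89 in NOD CD8+ and 0.93 in B6 CD8+ cDC, fell by 0.53 in B6 CD11b+ cDC and stood at -0.31 in NOD CD11b+ cDC, which did not pass. Keap1, which holds the regulator NRF2 in check, rose by 1.28, 1.34, 0.99 and 1.20. Of 17 tested enzymes that use amino acids, 3, 4, 1 and 5 were higher and 7, 8, 1 and 7 lower, with medians of -0.20, -0.29, -0.04 and -0.22. Arginase 2 (Arg2) rose by 0.75 in NOD CD8+, 2.42 in B6 CD8+ and 0.93 in B6 CD11b+ cDC, and glutamine synthetase (Glul) fell by 1.30, 1.65 and 1.44 in the same groups. Their NOD CD11b+ values of 0.56 and -0.38 did not pass. Of 19 tested carriers of other families, 3, 7, 4 and 4 were higher and 2, 4, 0 and 5 lower, with medians of 0.04, 0.14, 0.09 and -0.10. The mitochondrial glutamate carrier Slc25a22 rose by 1.29, 1.76, 1.51 and 2.03, and the lysosomal cystine exporter Ctns gave -0.82, -1.45, -0.26 and -1.05, of which the NOD CD11b+ value did not pass.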

How the data were processed

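RNA of sorted cells was amplified from 5 ng and hybridised to 1 array per sample. The labels name one Mouse Genome array, while the probe IDs belong to the annotation of a whole-transcript gene array, so the model is not settled here. Per the submitters' processing notes the authors used RMA and Partek, with versions not given, and the deposited values are log2 intensities (1.92 to 14.12, array medians 5.79 to 5.87). Signal over background is not given, so the number of arrays limits the precision.

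Of 35556 probe sets, 21789 carry 1 platform gene symbol, 1621 several and 12146 are not listed there, and symbols were updated through gene IDs for 21698. Each of 19938 genes was read from its probe set of highest mean (999 have several, among them Slc38a1 and Slc38a9), and the 11228 genes above the array median on at least 3 of 24 arrays were tested. The fit used limma 3.58.1 in R 4.3.3, with 1 mean per group for 8 groups (16 residual degrees of freedom), trended empirical Bayes and Benjamini-Hochberg adjustment within each of 16 contrasts at 0.05. All groups share the estimate of spread. The fit was tested on simulated data, and the outcome is not given here. Values of every array are printed for members called with a log2 difference of at least 1 after CpG, between strains or in an interaction. Array values of some groups are printed for Slc3a2, Slc7a1 and Slc7a8 as well. Of each list, up to 4 called genes with large CpG changes may be named. Members and lists were chosen with earlier results of these data known, and counts over lists are descriptions.

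Alternatives were no filter, a filter of 12 of 24 arrays, the mean of all probe sets, quantile normalization, median centring, no variance trend, a fit of the compared groups alone, a block for the replicate number, and leaving out each array in turn. Centring on the tested genes and a block in a fit of only the groups compared were added after the data were seen.

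Groups share replicate numbers in the sample titles, and no label says what a number stands for. Deviations of same-numbered arrays correlated above 0.1 in every pair for the CpG effect in NOD mice (0.181 to 0.338 in CD8+ cDC, 0.155 to 0.215 in CD11b+ cDC), for NOD against B6 in CpG (0.242 to 0.544) and PBS CD8+ cDC (0.200 to 0.288), and for CD8+ against CD11b+ cDC in all 4 settings (lowest 0.105, highest 0.445). They did not for CpG against PBS in B6 CD8+ (lowest 0.061) and B6 CD11b+ cDC (lowest -0.108), or for NOD against B6 in CpG (lowest -0.003) and PBS CD11b+ cDC (lowest -0.100). Promoter windows come from RefSeq tables of GRCm38.p6.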

Additional observations from a re-analysis of the deposited data

Results flagged for a closer look

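The results listed here are those whose CpG change differed between strains or between subsets by an interaction term in limma. In CD8+ cDC, Slc7a5 had a NOD minus B6 difference of 0.94 in its CpG change (adjusted p = 0.0216). That call ended without CpG replicate 2 or 3 or PBS replicate 1 of NOD, and without CpG replicate 1 or PBS replicate 2 or 3 of B6 (0.69 to 0.95, adjusted p of 0.0507 to 0.0683), and in a fit of only the groups compared (adjusted p = 0.129). It held without NOD CpG replicate 1, the array that stood apart (1.09, adjusted p = 0.00237), and without that array Slc1a5 (1.16), Slc38a1 (1.00) and Slc6a8 (-0.53) were called as well.

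In CD11b+ cDC, the NOD minus B6 difference of the CpG change was 0.92 for Slc43a2 (adjusted p = 0.00647), -0.69 for Slc6a8, which the filter passed through CpG arrays alone, and -0.68 for Slc7a1 (adjusted p = 0.0226). The Slc6a8 call ended without replicate 1 or 3 of the B6 PBS group and without any 1 array of the other 3 groups (-0.56 to -0.74), with no filter, under quantile normalization and with centring on the tested genes. The Slc7a1 call ended without any of 6 single arrays (-0.56 to -0.66, adjusted p of 0.0574 to 0.0648), which were NOD CpG replicate 1, NOD PBS replicates 1 and 3, B6 CpG replicate 2 and B6 PBS replicates 2 and 3.

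Between subsets in NOD, the CD8+ minus CD11b+ difference of the CpG change was -1.30 for Slc7a7 (adjusted p = 0.00319). Without NOD CD8+ CpG replicate 3, 6 members were called in this comparison. In B6, the same difference was 1.26 for Slc6a12, -1.34 for Slc7a5, -0.83 for Slc7a7 (adjusted p = 0.0324) and -0.80 for Slc7a11, which lay below the array median on all CD8+ arrays, as did Slc6a12. The Slc7a7 call in B6 ended without CD8+ CpG replicate 1 (-0.58, adjusted p = 0.107) and without 7 other single arrays, under quantile normalization (-0.76) and with median centring. The Slc7a11 call ended without 10 of the 12 arrays taken 1 at a time (-0.63 to -0.85), with no filter and under both centrings. In B6 CD11b+ cDC, 13 of 14 NK markers rose after CpG and the other one fell, and their part in these values was not tested.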

How the results depend on the processing

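Of 129 calls of members over the 16 comparisons, 85 held in every alternative run for them, 44 ended in at least 1, and 0 changed direction. The 12-array filter does not test 7 members, which hold 23 of the calls and 17 of the 85. Counts of called members stayed within 1.5 times of the main count except as follows, and the causes were not tested. With only the groups compared, CpG in NOD CD8+ cDC gave 7 and both NOD against B6 in CpG CD8+ cDC and the strain difference of the CpG change in CD8+ cDC gave 0. The subset difference of the CpG change in B6 gave 2 under the 12-array filter, which does not test Slc6a12 and Slc7a11, and 2 under median centring. With the replicate number as a block it gave 2 in NOD and 7 in B6. With the block in a fit of only the groups compared it gave 2 in NOD and 9 in B6, CpG in NOD CD11b+ cDC gave 10, and NOD against B6 in PBS CD8+ cDC gave 2. Where numbers do not pair the samples, the block over all 8 groups left the CpG counts in B6 at 16 and 18, called Slc6a6 (-0.31, adjusted p = 0.0234) in NOD against B6 CpG CD11b+ cDC, and added Slc7a7 (0.77, adjusted p = 0.022) to the strain difference in CD11b+ cDC. The block changed no other call beyond those given beside the results and Slc1a5 (-0.77), Slc38a10 (-0.50) and Slc6a20a (-0.61) in the B6 subset difference.

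Leaving out 1 array at a time gave 9 to 11 called members for CpG in NOD CD8+, 13 to 15 in B6 CD8+, 4 to 7 in NOD CD11b+ and 14 to 17 in B6 CD11b+ cDC. It gave 1 to 9 for NOD against B6 in CpG CD8+, 1 in every case in PBS CD8+, 10 to 13 in CpG CD11b+ and 2 to 3 in PBS CD11b+ cDC. For CD8+ against CD11b+ cDC it gave 13 to 15 in CpG NOD, 8 to 10 in PBS NOD, 11 to 15 in CpG B6 and 6 to 9 in PBS B6 mice. For the differences of the CpG change it gave 0 to 4 and 1 to 3 between strains in CD8+ and CD11b+ cDC, and 1 to 6 and 2 to 5 between subsets in NOD and B6 mice.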
